A study of Mus musculus with 10 samples.

Results

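The 37 genes described here encode proteins of DNA replication, mitosis and repair by recombination, which dividing cells make and resting cells largely lack. They were chosen with earlier results of these data known. Their names were looked up among the 15341 genes of a table of RNA-seq read counts from mouse heart, and all 37 were found in it, so none was absent. Hearts were taken from 10 male mice, 5 in the plasma S1Pless group and 5 among their littermate controls. S1P, sphingosine 1-phosphate, is a lipid messenger of the blood made by the sphingosine kinases Sphk1 and Sphk2. The S1Pless group has the genotype Sphk1f/-:Sphk2f/-:Mx1Cre+ and the control group the genotype Sphk1f/-:Sphk2f/-:Mx1Cre-, so that each animal of both groups carried a floxed and a null allele of both kinase genes and only the recombinase differed. Mx1-Cre is driven by an interferon-inducible promoter active in blood-forming cells and in several other cell types, and neither the animals' age nor how Cre was induced is given.

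In a dividing cell the MCM proteins form the helicase that opens DNA at replication origins, and PCNA clamps the polymerases to the template. Cyclins A and B then activate the kinase CDK1, the chromosomes are attached to a spindle of microtubules, and the ubiquitin ligase APC/C with its activator CDC20 ends mitosis. The transcription factors E2F1 and FOXM1 switch on the genes of DNA synthesis and of mitosis. Adult heart muscle cells seldom divide, and the heart's immune, endothelial and stromal cells can divide more readily. In RNA from whole tissue, more cells of a type and more RNA per cell cannot be told apart.

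Promoters of 4 members are shown because these genes carry the comparisons below: Rad51ap1, the only member called, and Mki67, Top2a and Cdk1, markers of dividing cells. The sequences are the 250 bases before the gene start, from RefSeq in the build GRCm38.p6, and all 4 genes lie on the minus strand. The windows are chr6:126939588-126939837 for Rad51ap1, chr7:135716380-135716629 for Mki67, chr11:99024190-99024439 for Top2a and chr10:69352913-69353162 for Cdk1. Capitals mark matches on either strand to the CCAAT box (CCAAT), to the cell cycle genes homology region or CHR (TTTGAA or TTCGAA) and to the E2F site (TTTCCCGC, TTTCGCGC, TTTGCCGC or TTTGGCGC).
Rad51ap1: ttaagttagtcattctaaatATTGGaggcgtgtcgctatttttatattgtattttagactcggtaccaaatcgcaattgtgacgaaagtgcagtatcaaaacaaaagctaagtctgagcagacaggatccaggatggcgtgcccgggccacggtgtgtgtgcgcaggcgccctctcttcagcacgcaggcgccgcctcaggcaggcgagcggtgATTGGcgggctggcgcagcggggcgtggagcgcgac
Mki67: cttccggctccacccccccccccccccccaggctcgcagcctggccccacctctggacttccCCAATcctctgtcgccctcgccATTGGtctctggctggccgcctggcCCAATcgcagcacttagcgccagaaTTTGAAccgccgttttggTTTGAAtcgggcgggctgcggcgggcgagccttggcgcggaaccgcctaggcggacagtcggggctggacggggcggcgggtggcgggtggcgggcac
Top2a: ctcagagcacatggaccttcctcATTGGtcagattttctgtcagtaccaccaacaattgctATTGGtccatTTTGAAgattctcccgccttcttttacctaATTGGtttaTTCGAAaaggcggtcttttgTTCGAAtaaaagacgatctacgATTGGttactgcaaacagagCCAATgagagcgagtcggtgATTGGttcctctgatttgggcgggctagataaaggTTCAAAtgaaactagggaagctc
Cdk1: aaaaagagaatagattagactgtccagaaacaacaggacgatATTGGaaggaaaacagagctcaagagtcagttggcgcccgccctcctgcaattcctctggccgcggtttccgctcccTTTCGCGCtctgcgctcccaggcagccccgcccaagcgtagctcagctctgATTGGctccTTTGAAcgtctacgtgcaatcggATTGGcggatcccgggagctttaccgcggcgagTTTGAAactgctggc

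Top2a held 6 CCAAT and 4 CHR matches in these bases, Mki67 held 3 and 2, and Cdk1 held 3 and 2 with 1 E2F match. Rad51ap1 held 2 CCAAT matches, and the letters of the CHR and E2F motifs are not in its window. RefSeq promoters were found for 31 members, 2 of them with 2 windows each, and 6 members had no entry. Over the whole windows of 300 bases, which also take in 50 bases after the start, CCAAT was in 27 of the 33 member windows (81.8%), against 37.4% of all 32851 promoters. CHR letters were in 16 (48.5%), against 19.2%, and E2F letters in 6 (18.2%), against 2.26%. Among the windows of the cyclin, kinase, spindle, mitotic exit and Mki67 genes 14 of 19 held CHR letters, and among those of the replication genes 2 of 10 did, while E2F letters were in 1 of 19 and 4 of 10. In 1 place in the member windows matches of different motifs shared bases. These matches describe the sequences and show no binding.

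The libraries held 16354071 to 20832566 counts. Each level below is in CPM, counts per 1e6 counts of a library whose size was scaled for composition (TMM factors), and 1 read was worth 0.0451 to 0.0658 CPM. As a check on the labels, Sphk1 and Sphk2 had log2 fold changes of -0.74 and -0.27 in S1Pless hearts, neither of them called (adjusted p = 0.168 and 0.180, edgeR's quasi-likelihood test). All 8 heart muscle markers were present, with at least 18077 reads each in every heart. Their summed level was lower in every S1Pless heart (45500 to 54000 CPM) than in any control (55100 to 58600 CPM). Taken singly, none of the 8 was called in edgeR (log2 fold changes -0.3 to -0.06, adjusted p of 0.089 to 0.853). Only 1 of them, Pln, did not overlap between the groups.

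Reads of the cell cycle genes were few. The 37 genes together drew 2001 to 2433 reads in a control library and 2420 to 3588 in an S1Pless library, or 0.0103 to 0.0184% of all counts. In 24 of the 37 the median heart held fewer than 30 reads, and only 5 had at least 100 reads in every heart. The members with fewer than 10 reads in a library numbered 7 to 13 in controls and 2 to 8 in S1Pless hearts. Ccnb1, which encodes cyclin B1, had 0 to 9 reads, Bub1, a spindle checkpoint kinase, 0 to 13, Aurkb, the kinase that corrects faulty spindle attachments, 1 to 16, and Brca1, a recombination repair gene, 1 to 23. These 4 did not reach the level needed for testing. The other 33 were tested. Of these, 11 reached the filter's level in more S1Pless than control hearts, so the members that passed are not an even sample of the list.

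**Figure D1:**
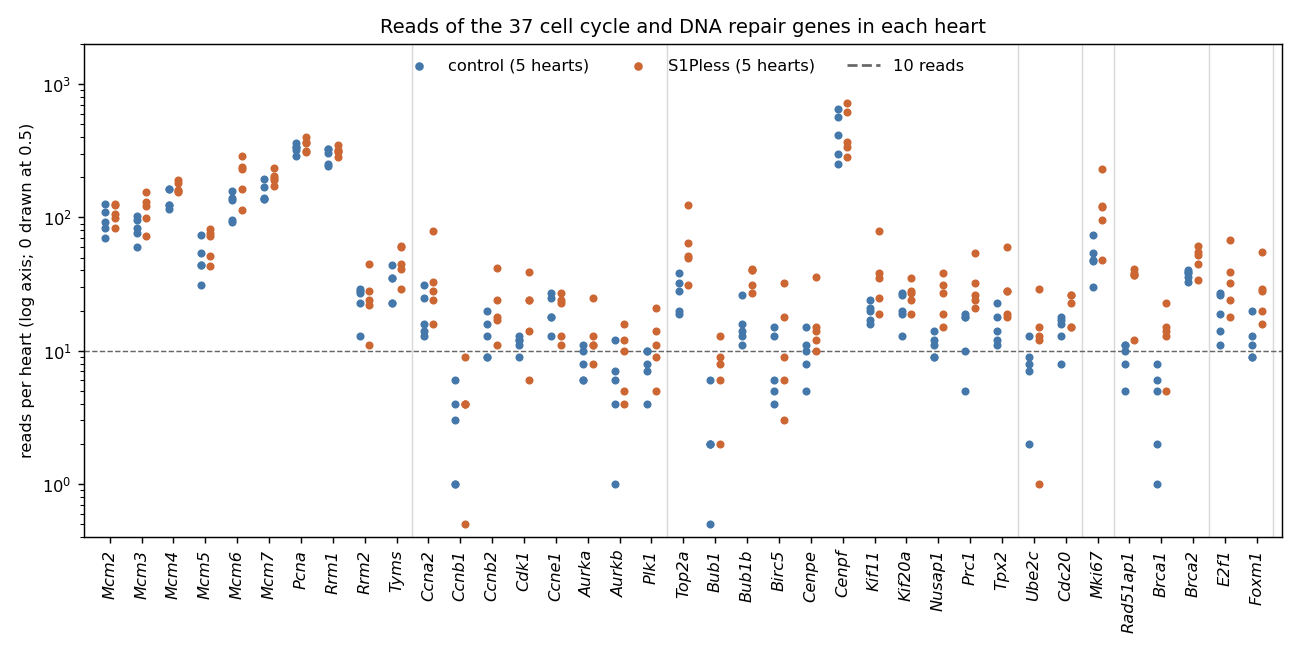
Reads of each of the 37 genes in each heart on a log axis (0 reads drawn at 0.5), with 1 point per heart and the genes ordered by role. Most genes of mitosis lie near the dashed line at 10 reads, while the replication genes Pcna and Rrm1 and the kinetochore gene Cenpf stay above 200 reads in all hearts.

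Of the 33 tested members 1 was called higher in S1Pless hearts and 0 lower, at an adjusted p below 0.05 by edgeR's quasi-likelihood test, adjusted by Benjamini-Hochberg over all 12992 tested genes. Across those genes 3.4% were called higher and 0.316% lower, 3.72% in all, so the share of members called, 3.03%, was near the background. DESeq2 called 5 of 37 members higher (Bub1b, Mki67, Nusap1, Rad51ap1 and Top2a) and 0 lower. Of all 14994 genes in that fit it called 753 higher and 266 lower. At an unadjusted p below 0.05 in edgeR 11 members were higher and 0 lower, and 13% of all tested genes were higher at that level. Log2 fold changes were above 0 in 27 of the 33, against 47.4% of all genes, with a median of 0.53 against -0.01. As the members were chosen with earlier results known, their comparison with all genes is not independent of these data. In the fit without a filter, which takes in all 37, 31 were above 0 and the median was also 0.53. Without S1Pless replicate 5 the median was 0.22 and 7 members were higher at an unadjusted p below 0.05. With a filter of 1 CPM in 5 libraries, which kept 22 members, the median was 0.25, and with hearts whose sample titles carry neighbouring numbers taken as blocks it was 0.12. Hearts without a neighbouring number add nothing to the fit with blocks, and what the title numbers stand for is not given.

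**Figure D2:**
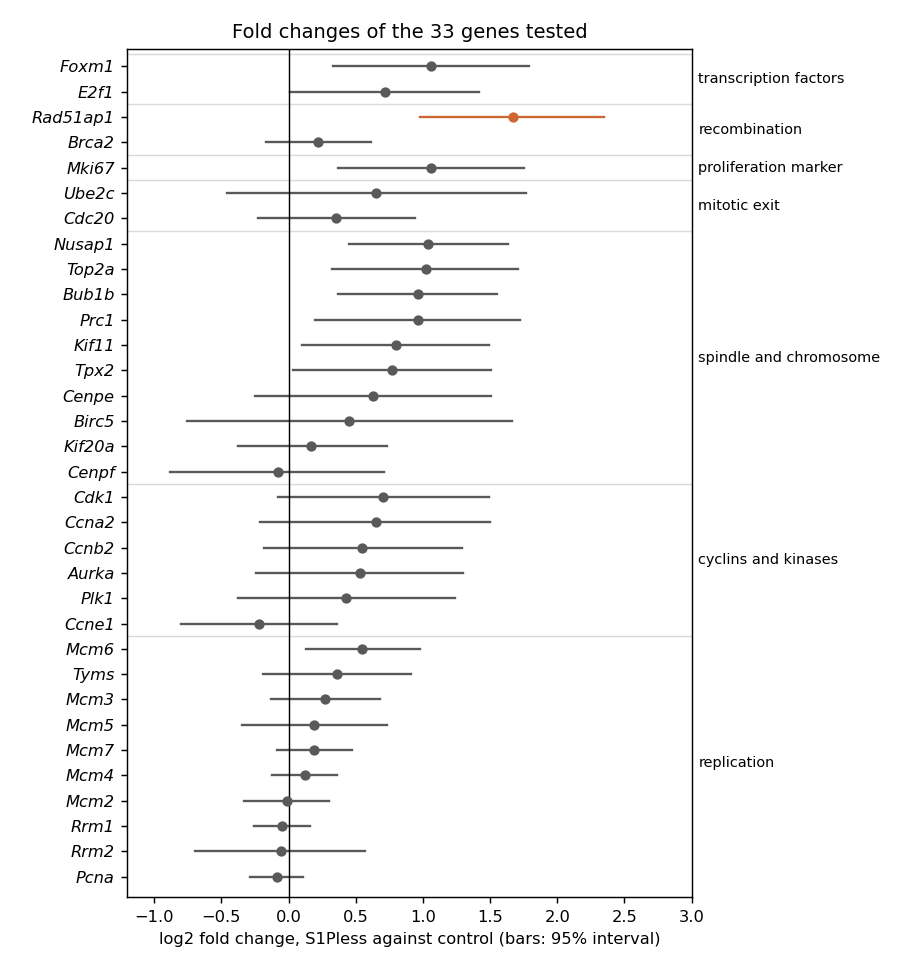
Log2 fold changes of the 33 tested genes, S1Pless against control (points), with 95% intervals from the edgeR fit (bars), grouped by role. Rad51ap1, in orange, is the gene called, and the replication genes lie between -0.09 and 0.55.

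Rad51ap1 (ENSMUSG00000030346), which encodes a protein that promotes strand pairing during repair of broken DNA, rose 3.17-fold. The controls had 0.658, 0.430, 0.586, 0.599 and 0.279 CPM in replicates 1 to 5, from 5 to 11 reads each. The S1Pless hearts had 1.67, 1.85, 0.696, 1.92 and 1.94 CPM, from 12 reads in replicate 3 and 37 to 41 in the others. Every S1Pless heart lay above every control, and replicate 3 lay just above the highest control. The means were 0.510 ± 0.154 and 1.62 ± 0.525 CPM (SD, n = 5 each), with a log2 fold change of 1.67 ± 0.32 (SE) and an adjusted p of 0.0173 in edgeR. Each of the 10 fits that leave out a heart kept the call (adjusted p of 0.00627 to 0.0447). It was lost with neighbouring title numbers as blocks (log2 fold change 1.67, adjusted p = 0.187), a fit in which 7 genes of the whole table were called higher and 1 lower. Hearts without a neighbouring number add nothing to that fit, so it rests on fewer hearts. Groups that do not overlap in this direction were seen in 2 tested members, Rad51ap1 and Nusap1, and in 4.53% of all tested genes. Both members reached the filter's level in all 5 S1Pless hearts but in only 3 controls, and the filter asked for 5 hearts. They thus passed it through the group in which they were higher, and the missing overlap is not independent of that filter. The opposite order, with every S1Pless heart below every control, was seen in 0 tested members and in 1.82% of all tested genes.

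The remaining recombination genes are the tumour suppressors Brca1 and Brca2, which act in the repair of broken DNA. Brca2 had 2.50, 2.10, 1.76, 2.18 and 2.01 CPM in controls and 2.75, 2.60, 2.61, 1.71 and 2.61 CPM in S1Pless hearts. The groups overlapped through S1Pless replicate 4, the lowest of all 10 hearts, and the log2 fold change was 0.22 ± 0.18 (adjusted p = 0.526). Brca1, not tested for want of reads, had 6, 2, 1, 5 and 8 reads in controls and 13, 23, 5, 14 and 15 in S1Pless hearts. All S1Pless hearts but replicate 3 lay above the highest control. Without the filter its log2 fold change was 1.45 ± 0.48 (adjusted p = 0.121).

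Mki67, the gene of the nuclear protein Ki-67 that is used to mark dividing cells, was at 3.55, 2.58, 2.50, 1.63 and 4.13 CPM in controls. In S1Pless hearts it was at 5.37, 6.05, 2.79, 4.84 and 10.9 CPM. Replicate 5 was the highest of all hearts, and replicate 3 lay within the control range. The log2 fold change was 1.06 ± 0.32, short of the threshold (adjusted p = 0.0860), and 0.73 (adjusted p = 0.205) without S1Pless replicate 5. Without S1Pless replicate 3 it passed (1.25, adjusted p = 0.0348).

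Top2a, topoisomerase II alpha, which untangles chromosomes before they separate, had 2.10, 1.08, 1.49, 1.03 and 2.12 CPM in controls and 2.89, 2.50, 1.80, 2.57 and 5.93 CPM in S1Pless hearts. Only S1Pless replicate 3 fell within the control range. Its log2 fold change was 1.02 ± 0.32 (adjusted p = 0.0990), and 0.65 without S1Pless replicate 5. Nusap1, a protein that bundles spindle microtubules, had 0.789, 0.484, 0.586, 0.490 and 0.782 CPM in controls and 1.40, 0.951, 0.871, 1.36 and 1.80 CPM in S1Pless hearts. These groups did not overlap, but the test was missed narrowly (log2 fold change 1.04 ± 0.28, adjusted p = 0.0534). The Nusap1 gene overlaps exons of Oip5 on the opposite strand in GENCODE M21, and the strand setting of the counting is not given. Bub1b, which encodes the checkpoint protein BubR1, had 1.71, 0.753, 0.852, 0.599 and 0.726 CPM in controls and 1.85, 1.35, 1.80, 2.02 and 1.90 CPM in S1Pless hearts. Control replicate 1 stood at the level of the S1Pless hearts. The log2 fold change was 0.96 ± 0.27 (adjusted p = 0.0684), and without control replicate 1 it was 1.26 (adjusted p = 0.0163).

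None of the 10 tested spindle and chromosome genes was called, and 6 of them were higher at an unadjusted p below 0.05 in edgeR. Besides Nusap1, Bub1b and Top2a these were Prc1, which crosslinks the central spindle (0.96 ± 0.35), the kinesin motor Kif11 (0.80 ± 0.32) and the spindle assembly factor Tpx2 (0.77 ± 0.34), as log2 fold changes with SE. Birc5, the gene of survivin, Cenpe and Kif20a had log2 fold changes of 0.45, 0.63 and 0.17, with adjusted p-values of 0.421 to 0.758.

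Cenpf, which encodes a large protein of the outer kinetochore, did not vary between hearts as the other spindle genes did. It had 252 to 716 reads. The controls were at 37.3, 16.2, 13.4, 22.6 and 36.5 CPM and the S1Pless hearts at 12.9, 18.5, 41.6, 16.9 and 29.3 CPM. S1Pless replicate 3, the lowest of its group in Mki67 and Top2a, was the highest of all 10 hearts in Cenpf. The log2 fold change was -0.08 ± 0.36 (adjusted p = 0.926), with a 95% interval from -0.88 to 0.71. Cenpf falls outside the rule for genes given heart by heart, and it was singled out after its values were seen.

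The cyclin and kinase genes Cdk1, Ccna2 and Ccnb2 were highest in S1Pless replicate 5. In this role none of the 6 tested was called or had an unadjusted p below 0.05. Cdk1 was at 0.789, 0.591, 0.692, 0.490 and 0.670 CPM in controls and at 1.08, 1.20, 0.348, 0.706 and 1.85 CPM in S1Pless hearts. S1Pless replicate 3 was the lowest of all hearts and replicate 5 the highest, so the groups overlapped (log2 fold change 0.70 ± 0.37, adjusted p = 0.312). Ccna2, cyclin A2, had 1.64, 0.699, 0.745, 0.871 and 1.73 CPM in controls and 1.49, 1.40, 0.929, 1.21 and 3.74 CPM in S1Pless hearts. Without replicate 5 its log2 fold change of 0.65 ± 0.40 became 0.16. Ccna2 shares exon sequence with Exosc9 on the opposite strand. Ccnb2, cyclin B2, had 0.592, 0.484, 0.692, 1.09 and 0.894 CPM in controls and 0.767, 0.901, 0.638, 1.21 and 1.99 CPM in S1Pless hearts (0.55 ± 0.34, and 0.22 without replicate 5). Only replicate 5 and, by a small margin, replicate 4 exceeded the highest control. The kinase genes Aurka and Plk1 had log2 fold changes of 0.53 ± 0.36 and 0.43 ± 0.38, and Ccne1, the cyclin of entry into S phase, -0.22 ± 0.27.

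Ube2c and Cdc20, which act with the ubiquitin ligase that ends mitosis, were not called either. Ube2c had 0.132, 0.484, 0.692, 0.436 and 0.391 CPM in controls and 0.587, 0.751, 0.0580, 0.605 and 1.37 CPM in S1Pless hearts, where replicate 3 rested on 1 read. Cdc20 had 1.05, 0.430, 0.958, 0.708 and 0.95 CPM in controls and 1.17, 0.751, 0.871, 1.16 and 1.23 CPM in S1Pless hearts. Both genes overlapped widely between the groups, with log2 fold changes of 0.65 ± 0.52 and 0.35 ± 0.27 (adjusted p = 0.517 and 0.507).

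**Figure D3:**
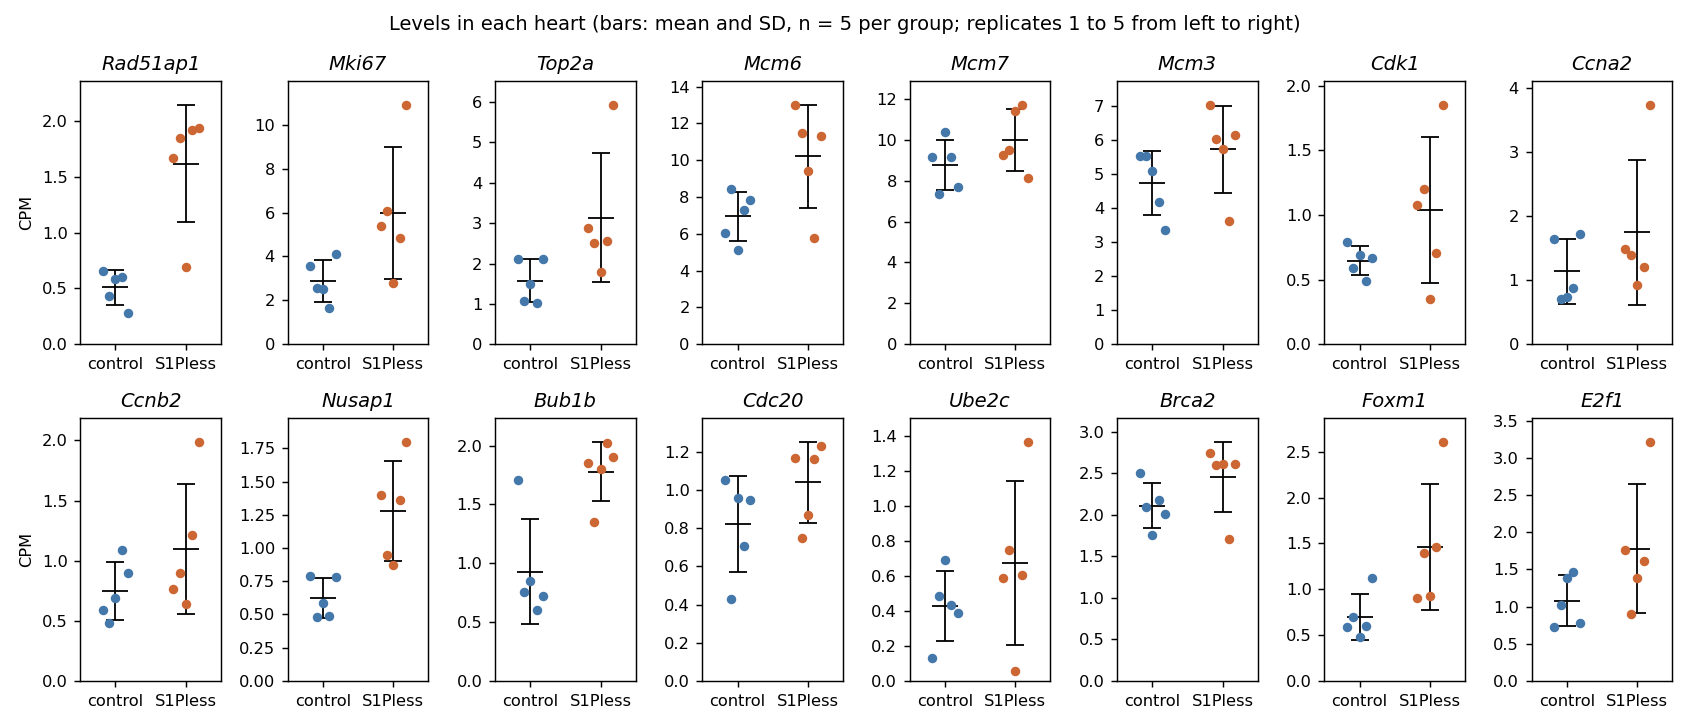
CPM of 16 members in each heart on linear axes from 0, with 1 point per heart in the order of replicates 1 to 5 and bars for the mean and SD of 5 hearts. Rad51ap1 and Nusap1 are the panels without overlap between the groups, and S1Pless replicate 5 is the top point in Mki67, Top2a, Ccna2, Ccnb2, Cdk1, Foxm1 and E2f1.

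The genes of DNA synthesis had more reads and smaller differences. None of the 10 was called, 1 was higher at an unadjusted p below 0.05, and the median log2 fold change was 0.15. Mcm6, a helicase subunit, was that gene, at 6.05, 8.44, 5.11, 7.30 and 7.82 CPM in controls and 13, 11.5, 9.40, 5.75 and 11.3 CPM in S1Pless hearts. S1Pless replicate 4 lay among the controls and the other 4 above them (log2 fold change 0.55 ± 0.20, adjusted p = 0.140). Without replicate 4 it passed (0.71, adjusted p = 0.0253).

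Mcm7 had 9.14, 7.36, 10.4, 9.15 and 7.71 CPM in controls and 9.25, 9.51, 11.4, 11.7 and 8.15 CPM in S1Pless hearts (0.19 ± 0.13). Mcm3 had 5.53, 5.54, 5.11, 4.19 and 3.35 CPM in controls and 7.04, 6.05, 5.75, 3.63 and 6.16 CPM in S1Pless hearts (0.27 ± 0.19). In Mcm3, as in Mcm6, S1Pless replicate 4 lay within the control range and the other 4 above it, whereas in Mcm7 the groups overlapped more widely. Mcm2, Mcm4 and Mcm5 had log2 fold changes of -0.01, 0.12 and 0.19. For Pcna the value was -0.09, for Rrm1 and Rrm2, subunits of the enzyme that makes deoxynucleotides, -0.05 and -0.06, and for Tyms, thymidylate synthase, 0.36. The 95% interval was -0.29 to 0.11 for Pcna and -0.26 to 0.16 for Rrm1, so larger changes of these 2 genes lie outside their intervals.

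Foxm1, a transcription factor for genes of mitosis, had 0.592, 0.699, 0.479, 0.599 and 1.12 CPM in controls and 0.903, 1.40, 0.929, 1.46 and 2.61 CPM in S1Pless hearts. Control replicate 5 lay among the S1Pless hearts, and the log2 fold change was 1.06 ± 0.34 (adjusted p = 0.100). E2f1, a transcription factor for genes of S phase, had 0.724, 1.02, 1.38, 1.47 and 0.782 CPM in controls and 1.76, 0.901, 1.39, 1.61 and 3.22 CPM in S1Pless hearts. Here the groups overlapped and S1Pless replicate 5 stood highest (0.72 ± 0.33, adjusted p = 0.243).

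A single heart carried part of the difference in mitotic genes. S1Pless replicate 5 had the highest CPM of all 10 hearts in 21 of the 37 genes. The share of all tested genes highest in that heart was not counted, so this number has no background beside it. The mean log2 CPM of the 33 tested members was 1.04, 0.64, 0.78, 0.69 and 0.90 in control replicates 1 to 5 and 1.22, 1.08, 0.95, 1.11 and 1.78 in S1Pless replicates 1 to 5. S1Pless replicate 3 lay below control replicate 1, and the others lay above all controls. The mean of S1Pless hearts exceeded that of controls by 0.42, and by 0.28 when the value of S1Pless replicate 5 was left out. For the tested cyclin, kinase, spindle, chromosome, mitotic exit and Mki67 genes alone it exceeded by 0.49, and by 0.29 without S1Pless replicate 5.

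The summed level of macrophage markers was also highest in that heart. Of 20 markers 19 were in the table and tested, all 19 had log2 fold changes above 0, and 9 were called higher. Their summed level ran from 393 to 512 CPM in controls and from 619 to 1480 CPM in S1Pless hearts, with 1480 CPM in replicate 5 and at most 766 CPM in the others, and no marker in the table was at 0 in any heart. The macrophage score, the mean log2 CPM of these markers, was 3.85, 3.69, 3.74, 3.49 and 3.61 in controls and 4.47, 4.22, 4.40, 4.21 and 5.27 in S1Pless hearts. The groups did not overlap in this score, so the hearts form separate clusters of 5 and no correlation over all 10 is given. S1Pless replicates 5 and 1 stood first and second in both scores. Replicate 3 had the third highest macrophage score and the lowest cell cycle score of its group. Among controls replicate 1 led both scores, and replicate 5 had the second highest cell cycle score and the fourth highest macrophage score.

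**Figure D4:**
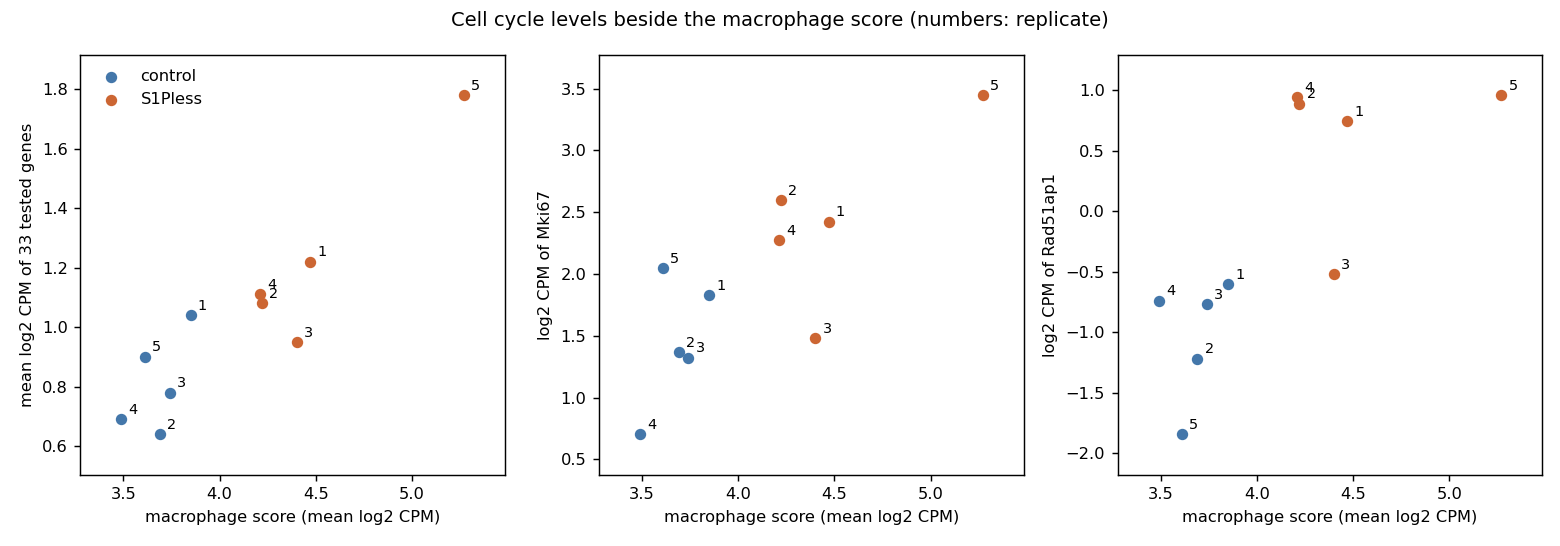
Mean log2 CPM of the 33 tested members (left), log2 CPM of Mki67 (middle) and log2 CPM of Rad51ap1 (right) against the macrophage score, with 1 point per heart labelled by replicate. S1Pless replicate 5 is far to the right, at 5.27, and highest in the left and middle panels, whereas in Rad51ap1 its level is close to those of S1Pless replicates 1, 2 and 4.

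Within the groups, each gene was related to the macrophage score by a slope, the log2 change per unit of score in a model that also held the group. None of the 33 members had a slope past the threshold in edgeR, where 0.8% of all tested genes were called with a positive slope. At an unadjusted p below 0.05, 11 members had positive and 0 negative slopes. The share of all genes at that unadjusted level was not computed. Slopes were above 0 in 31 of 33 members, against 52.1% of all genes, with a median of 0.68 against 0.01. Examples were Birc5 (2.30 ± 0.58, adjusted p = 0.121), Kif11 (1.32 ± 0.33, adjusted p = 0.108), Top2a (1.29 ± 0.34, adjusted p = 0.142) and Mki67 (1.12 ± 0.38, adjusted p = 0.363). Rad51ap1 had a slope of 0.22 ± 0.46. Without S1Pless replicate 5 the slopes of 25 of 33 members were above 0, the median was 0.47, and those of Mki67, Top2a and Kif11 were 0.19, 0.85 and 0.42, while that of Birc5 was 6.31. In that fit 4 members had an unadjusted p below 0.05 in either direction. No gene of the table was called with a positive slope there, where 104 had been. With the macrophage score as a covariate of the group comparison no gene of the table was called in either direction, 1 member was higher and 1 lower at an unadjusted p below 0.05, and 9 of 33 members had log2 fold changes above 0, where 27 had been. Rad51ap1 stood at 1.48 and Birc5 at -1.74 in that fit. Because the macrophage score did not overlap between the groups, that fit cannot well separate group from score. The part of macrophages in the cell cycle differences was not tested beyond these fits.

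Markers of other blood cells are given as summed levels. Those of T and NK cells, 9 of 12 in the table, ran from 2.72 to 8.42 CPM in controls and 5.20 to 9.79 CPM in S1Pless hearts, with 5.40 CPM in S1Pless replicate 5. Neutrophil markers ran from 5.23 to 22.1 CPM and 12.4 to 22.4 CPM, and those of red cell precursors from 55.4 to 164 CPM and 80.6 to 161 CPM. B cell markers ran from 11.2 to 15.4 CPM and 11.6 to 22.5 CPM, a sum made up mostly of Ighm, while Ighd was called lower (log2 fold change -1.59, adjusted p = 0.0136 in edgeR). In these 4 lists the summed levels overlapped between the groups, and no gene was at 0 in every heart. Means of log2 CPM, in which each gene weighs the same, take in tested genes only. By that measure the 3 tested T and NK cell markers (Cd3e, Cd4 and Trac) did not overlap as a set (-1.32 to -0.20 in controls, -0.10 to 0.39 in S1Pless hearts). Each of them overlapped when taken singly, as did the untested ones in the table. The 3 tested B cell markers, with Ighd among them, averaged 1.11 in controls and 0.72 in S1Pless hearts. Among stromal and vessel cells, fibroblast markers ran from 865 to 1090 CPM in controls and from 1020 to 1410 CPM in S1Pless hearts, with 1410 CPM in replicate 5. Lymphatic endothelial markers ran from 118 to 153 CPM and 141 to 177 CPM, with 3 of 6 genes called higher. Of these 6, Prox1 went the other way (log2 fold change -0.34, adjusted p = 0.218 in edgeR). The fibroblast and lymphatic sums overlapped, but as mean log2 CPM neither list did: fibroblast markers were at 5.89 to 6.08 in controls and 6.13 to 6.63 in S1Pless hearts, and lymphatic markers at 3.57 to 3.90 and 3.98 to 4.60. Endothelial markers overlapped, at 1450 to 1660 CPM in controls and 1490 to 1770 CPM in S1Pless hearts. So did mural cell markers, at 1640 to 1870 CPM and 1620 to 1860 CPM. Of the 10 endothelial markers 7 had log2 fold changes above 0 and 3 below. Erg was called higher (0.38, adjusted p = 0.0332 in edgeR), and Flt1 was lower but not called (-0.23, adjusted p = 0.186). Neither of these 2 genes overlapped between the groups. The part of these cells in the cell cycle differences was not tested.

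The rest of the pathway was read from 8 lists of 229 other genes of the cell cycle and DNA repair, 189 of them tested. Of these 189, 3 were called higher (1.59%, against 3.4% of all tested genes) and 0 lower in edgeR. At an unadjusted p below 0.05, 22 were higher and 2 lower, where 13% of all tested genes were higher. The median log2 fold change was 0.03. In the list of 55 other mitosis genes 30 were tested, 26 had log2 fold changes above 0, the median was 0.38, and 1 was called. That gene, Kif22 (ENSMUSG00000030677), a kinesin that moves chromosome arms, rose 2.58-fold from 0.374 ± 0.192 to 0.966 ± 0.257 CPM (SD, n = 5 each, adjusted p = 0.0468). It had 3 to 12 reads in controls and 11 to 26 in S1Pless hearts, and S1Pless replicate 3 met control replicate 3. Leaving out single hearts kept its call only for S1Pless replicate 3 (adjusted p of 0.0406 to 0.117 over all 10). The call was also lost with RLE factors (0.0514), no filter (0.055), a title series covariate (0.0766) and neighbouring title numbers as blocks (0.259). It was kept with upper-quartile factors, library totals alone and DESeq2.

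Cdk6 (ENSMUSG00000040274), a kinase of entry into the cell cycle that pairs with D-type cyclins, was the only 1 of 22 tested genes called among G1 cyclins, kinases and E2F partners. It had 10.6, 10.6, 10.7, 11.5 and 14.7 CPM in controls and 16.2, 17.9, 17.4, 16 and 25.1 CPM in S1Pless hearts, with no overlap. The rise was 1.60-fold (log2 fold change 0.67 ± 0.14, adjusted p = 0.0201), and leaving out control replicate 3 (0.0603) or 4 (0.0549) ended the call. Among p53 targets 1 of 22 was called, Tnfrsf10b (ENSMUSG00000022074), a death receptor gene. It rose 1.54-fold, from 3.35 to 4.19 CPM in controls to 4.80 to 6.68 CPM in S1Pless hearts (adjusted p = 0.0236). Leaving out any of 5 hearts, control replicates 3, 4 and 5 and S1Pless replicates 1 and 5, ended this call (adjusted p of 0.0518 to 0.0637).

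The lists of other replication genes (32 tested), cell cycle inhibitors (14), other recombination repair genes (27), other DNA repair genes (31) and checkpoint genes (13) held no called gene in edgeR, and 2, 1, 2, 4 and 2 genes at an unadjusted p below 0.05. Their median log2 fold changes lay between -0.05 and 0.02. The genes with the smallest p in these lists were Pola2, a subunit of DNA polymerase alpha (0.24 ± 0.08), and Uhrf1, which maintains DNA methylation after replication (0.77 ± 0.30). Among inhibitors they were Rbl1, the pocket protein p107 (0.54 ± 0.16), and Tob1 (-0.26 ± 0.13). Brip1, a helicase that binds BRCA1 (0.60 ± 0.23), and Nbn, part of a sensor of broken DNA (-0.20 ± 0.08), led the recombination genes. The remaining ones were the nuclease gene Dclre1c (0.43 ± 0.12) and Ung, which removes uracil from DNA (-0.31 ± 0.11), the checkpoint kinase gene Chek2 (0.47 ± 0.13) and Timeless (0.35 ± 0.15). Adjusted p-values of these 10 genes ran from 0.0580 to 0.275.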

How the data were processed

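Heart RNA of 10 mice, extracted by TRIzol and RNeasy kits, was sequenced from stranded mRNA libraries, per the labels' protocols. The authors deposited 1 table of raw counts by Ensembl gene. Per the submitters' processing notes, STAR 2.7.8a and featureCounts 2.0.1 were used with the build GRCm39. For the annotation, the strand setting and the rule on reads that map to several places, the sources used here give nothing. Counts of members with pseudogenes (Ccnb1, Ccnb2, Pcna and Tyms in GENCODE M21) or with exons overlapping another gene (Top2a, Foxm1, Mcm7, Ccna2, Cdc20, Kif20a, Nusap1, Plk1, Prc1, Ube2c and Brca2) are therefore uncertain. Groups follow the genotype, and replicates are numbered in accession order, which pairs nothing. Column suffixes in the table run through all controls before all S1Pless hearts.

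Symbols were matched through GENCODE M21, and 20 of the 15341 genes had none. The group test was that of edgeR 4.0.16 (R 4.3.3): filterByExpr at its minimum count of 10, normalization by TMM, estimateDisp and glmQLFit with robust estimation, glmQLFTest (two-sided), Benjamini-Hochberg adjustment over 12992 genes and a threshold of 0.05. The SE of a log2 fold change is its size over the root of F. Scores are means of log2 CPM (prior count 2). The scripts were tested on simulated data. Members and lists were chosen with earlier results of these data known. Values per heart are given for called members, Mki67, Top2a and up to 3 members of each role with the smallest p. From each other list the text names up to 4 called genes or, where none was called, the 2 with the smallest p. Alternatives were other scaling factors, DESeq2 1.42.0, other filters, covariates from the title numbers or the macrophage score, and leaving out each heart.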

Additional observations from a re-analysis of the deposited data

Results flagged for a closer look

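In groups of 5 hearts, a heart was marked when its gap to the nearest other exceeded 0.71 of the group's range, which chance gives in about 1 in 20 groups. Of 62 groups examined 12 held such a heart. S1Pless replicate 5 stood high in Top2a (5.93 CPM, others 1.80 to 2.89), Ccna2 (3.74 CPM, others 0.929 to 1.49), Cdk6 (25.1 CPM, others 16 to 17.9) and the macrophage score (5.27, others 4.21 to 4.47). S1Pless replicate 3 stood low in Rad51ap1 (0.696 CPM, others 1.67 to 1.94), and S1Pless replicate 4 low in Brca2 (1.71 CPM, others 2.60 to 2.75). Timeless was high in S1Pless replicate 1 (30.6 CPM, others 18 to 21.1) and in control replicate 3 (22.5 CPM, others 14.8 to 16.3). Control replicate 1 was high in Bub1b (1.71 CPM, others 0.599 to 0.852) and low in Tob1 (43.8 CPM, others 58.1 to 63.7). Control replicate 5 was high in Cdk6 (14.7 CPM, others 10.6 to 11.5), and control replicate 2 low in Chek2 (5.59 CPM, others 6.75 to 6.98).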

How the results depend on the processing

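The call of Rad51ap1 was kept under RLE and upper-quartile factors, library totals alone, DESeq2, no filter, the title series covariate and each left-out heart. With a filter of 1 CPM in 5 libraries it was not tested, and 0 members were called. Library totals alone shift the median of all genes by 0.136. With them 6 of 33 members (Bub1b, Foxm1, Mki67, Nusap1, Rad51ap1 and Top2a) and 15 genes of the other lists were called. Of all 12992 genes 1420 were then called higher and 13 lower. DESeq2 called 5 of 37 members, 7 genes of the other lists and, of all 14994 genes, 753 higher and 266 lower. With neighbouring title numbers as blocks, where 4 hearts without a neighbour add nothing, 0 members, 0 genes of the other lists and 7 higher and 1 lower genes were called, the member median was 0.12, and Ccna2 turned to -0.17. With the 1 CPM filter the median was 0.25. With the macrophage score as a covariate 0 members were called, and among genes given heart by heart log2 fold changes turned to -0.15 in Top2a, -0.04 in Mcm3, -0.29 in Cdk1, -0.78 in Ccna2, -0.2 in Ccnb2, -0.42 in Ube2c and -0.3 in E2f1, and to just under 0 (0 when rounded) in Cdc20. The macrophage score did not overlap between the groups, so that fit cannot well separate group from score. The cause of these changes was not tested. Leaving out 1 heart gave 118 to 504 higher and 8 to 85 lower genes, 1 to 3 members called, 0 to 5 genes of the other lists (0 without control replicate 3 or 4), a member median of 0.22 to 0.64 and a score difference of 0.27 to 0.52, with factors and tested members set anew in each fit. The lowest median and difference were those without S1Pless replicate 5. Median slopes ran from 0.47 to 0.87, with 0 members called. Score differences use no covariate and were not recomputed with them. The labels give the groups no shared replicate numbers, so the blocks of neighbouring title numbers, whose meaning is not given, were the nearest to a paired fit. Few reads limit the precision of counting in the mitotic genes, though SEs did not follow reads alone: Cdk1 had 6 to 39 reads a heart and an SE of 0.37, Cenpf 252 to 716 and 0.36.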
